A study of Danio rerio with 10 samples.

Results

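The genes described here encode the contractile proteins of striated muscle: the myosins, actins, troponins, tropomyosins, titin and the proteins that anchor them in the sarcomere. They were chosen by gene symbol, with no value in the rule, and the symbol patterns matched 69 of 15617 probe sets on the array, standing for 51 genes. Of these, 55 probe sets for 40 genes encoded filament proteins: 7 probe sets for cardiac isoforms, 19 for skeletal isoforms, 17 for proteins used in both striated muscles, 9 for smooth-muscle or non-muscle isoforms and 3 for genes placed in no class. The other matches were 11 probe sets for antigen-presentation genes, whose names share the letters mhc with the myosin heavy chains, and 3 for mylka and mylipa, which act on myosin light chains without being part of a filament.

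The study compared zebrafish hearts under hypoxia with zebrafish hearts under normoxia on Affymetrix Zebrafish GeneChips, with 5 arrays for each. Per the labels these come from 4 biological samples in either group, and array 5 is a repeat of sample 2. The sources used here do not state the strain, age or sex of the fish, how low the oxygen was and for how long, or how many hearts made up a sample. Arrays 1 and 4 of hypoxia, and arrays 3 and 4 of normoxia, differed from each other by no more than a technical repeat did, so each pair was counted as 1 sample and every comparison is 3 against 3. These samples are called hypoxia 1/4, 2 and 3 and normoxia 1, 2 and 3/4. Nothing in the labels says whether the samples came from separate fish, so the p-values measure only the spread between them.

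A sarcomere shortens when myosin heads on the thick filament pull on the actin of the thin filament. Troponin and tropomyosin on the thin filament open that contact when calcium rises, titin runs as a spring between the Z-disc and the middle of the sarcomere, and alpha-actinin and the LDB3 proteins hold the filaments at the Z-disc. Fish, like mammals, use separate genes for many of these parts in the heart and in skeletal muscle, so the genes on an array can be grouped by the muscle they are known from. In whole tissue, fewer cells of a type and less RNA per cell cannot be told apart.

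Median intensities ran from 36.2 to 51.6 between arrays, and values were quantile normalized and given as log2 intensity. The log2 values of 2247 bright probe sets differed with an SD of 0.105 and 0.151 between technical repeats, 0.0927 and 0.112 between the near-identical arrays, and 0.268 to 0.635 between other arrays within a group. The upper end of this range belonged to normoxia 1, at 0.498 to 0.635 from the other normoxia arrays, against 0.268 to 0.384 for the pairs without it. Between groups the SD was 0.455 to 0.827. Normoxia arrays 3 and 4 lay nearer to every hypoxia array, at 0.455 to 0.519, than to normoxia 1, at 0.629 and 0.635. The 10 arrays were hybridized in 3 runs, with both groups in each: arrays 1 and 2 in run 1, arrays 3 and 4 in run 2 and array 5 in run 3, where the wash record ends in an abort. Of 10851 probe sets tested with limma, 432 passed an adjusted p of 0.05, 105 of them higher and 327 lower in hypoxia, which is 3.98% of those tested, with 0.968% higher and 3.01% lower. The groups did not overlap, with hypoxia lower, in 17.3% of all probe sets tested, and with hypoxia higher in 9.96%.

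Among the filament proteins, 4 of the 40 tested probe sets were lower in hypoxia at an adjusted p under 0.05, or 10.0% against 3.01% of all probe sets, and 0 were higher. They stood for 3 genes: ttn.2 with 2 probe sets, myh7 and myh10. At an unadjusted limma p under 0.05, 11 were lower (27.5%, against 13.4% of all) and 0 higher. The hypoxia samples lay wholly below the normoxia samples in 10 of the 40 (25.0%, against 17.3% of all) and wholly above them in 0 (against 9.96%). The median difference was −0.24 on the log2 scale, beside −0.05 over all probe sets tested.

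Of the 15 probe sets that were not tested, 4 were actin control probe sets of the manufacturer and 11 had low values. Of these 11, 9 lay under the background bound of 27.0 intensity units on all 10 arrays and 2 on 9 arrays. They left 5 genes with no tested probe set, the fast myosin heavy chain myhz1.3, the fast troponin I genes tnni2a.2 and tnni2a.4, the non-muscle myosin myh9a and the troponin T gene tnnt2c.

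**Figure D1:**
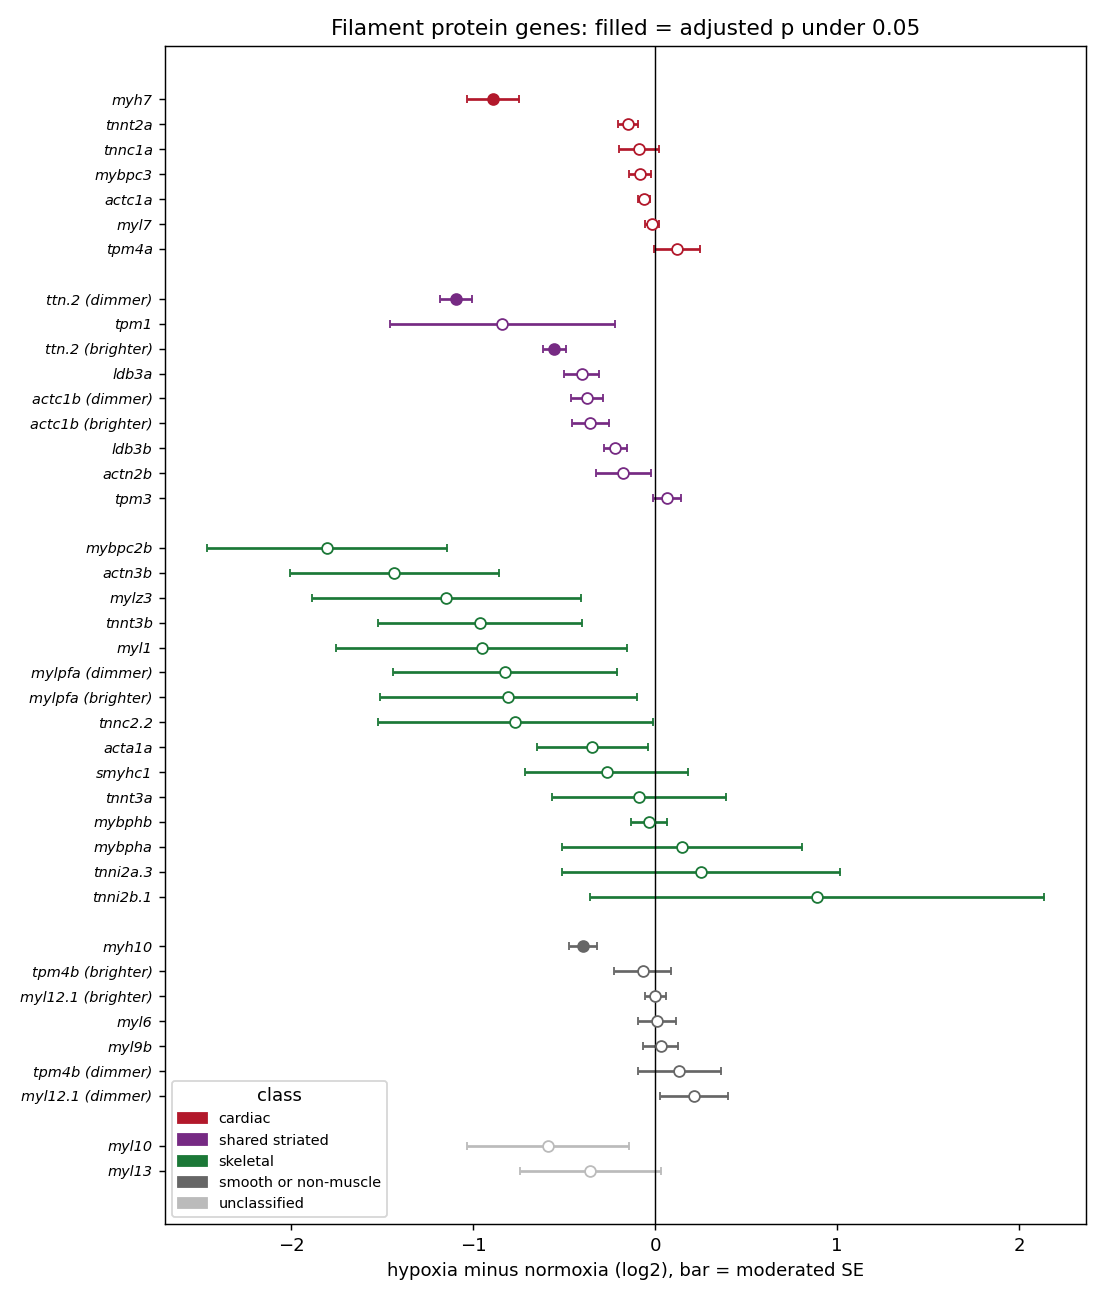
Difference between hypoxia and normoxia (log2, horizontal axis) for the 40 tested filament protein probe sets by class, with the moderated SE as bars and filled points for an adjusted p under 0.05. The 4 filled points all lie left of 0, the cardiac points other than myh7 lie close to 0, and the skeletal points carry the widest bars.

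Titin fell in hypoxia on both of its tested probe sets. The gene ttn.2 encodes one of the titins of zebrafish, the giant protein that sets passive stiffness and serves as a template for the sarcomere. Its dimmer probe set read 10.01, 9.90 and 9.77 log2 units in hypoxia 1/4, 2 and 3, against 11.00, 11.10 and 10.88 in normoxia 1, 2 and 3/4. Every hypoxia sample was thus below every normoxia sample, by more than the whole range within either group. The means were 9.90 ± 0.12 in hypoxia and 10.99 ± 0.11 in normoxia (SD, n = 3 each), a 2.14-fold lower level in hypoxia (log2 difference −1.10, SE 0.09, limma adjusted p = 0.0132).

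The brighter titin probe set moved the same way by less. It read 11.30, 11.10 and 11.24 in hypoxia against 11.78, 11.81 and 11.72 in normoxia, again with no overlap. The means were 11.21 ± 0.10 in hypoxia and 11.77 ± 0.04 in normoxia (SD, n = 3 each), a 1.47-fold lower level in hypoxia (log2 difference −0.56, SE 0.06, limma adjusted p = 0.0175). The remaining pair of ttn.2 probe sets lay under the background bound on all 10 arrays.

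The gap between the brighter and the dimmer titin probe set was itself wider in hypoxia, at 1.29, 1.20 and 1.47 log2 units, against 0.77, 0.71 and 0.84 in normoxia. The groups did not overlap, and the mean gap was larger in hypoxia by 0.54, with an exact two-sided permutation p of 0.1, the smallest that 3 against 3 samples allow. Probe sets read different stretches of a transcript, and which titin exons these ones read is not given in the files. Both titin calls were lost without hypoxia 3 (limma adjusted p = 0.0640 for the dimmer and 0.0793 for the brighter probe set), and the brighter one also without normoxia 1 (0.0534). The brighter probe set differed by −0.57 without hypoxia 3 and by −0.55 without normoxia 1. Over all 10851 probe sets, 0 were called lower without hypoxia 3, 13 without normoxia 1 and at most 111 without any 1 sample.

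The ventricular myosin heavy chain myh7, known earlier in zebrafish as vmhc, was the cardiac isoform that fell. This protein is the motor of the thick filament in the ventricle. It read 9.47, 9.03 and 9.19 in hypoxia against 10.02, 10.34 and 10.00 in normoxia. The highest hypoxia sample stayed below the lowest normoxia sample. The means were 9.23 ± 0.22 in hypoxia and 10.12 ± 0.19 in normoxia (SD, n = 3 each), a 1.86-fold lower level in hypoxia (log2 difference −0.89, 95% interval −1.23 to −0.55, limma adjusted p = 0.0277). The call was kept without hypoxia 1/4 (0.0416) and lost without any of the other 5 samples, with limma adjusted p between 0.0546 and 0.102 and differences between −0.95 and −0.78.

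The fourth call was myh10, the heavy chain of a non-muscle myosin II, which works outside the sarcomere in cell shape and division. It read 8.44, 8.38 and 8.36 in hypoxia against 8.79, 8.82 and 8.75 in normoxia, with no overlap between the groups. The range within each group was small after averaging, while single arrays of the same RNA lay farther apart, at 8.27 and 8.49 for hypoxia arrays 2 and 5 and at 8.90 and 8.74 for normoxia arrays 2 and 5. The means were 8.39 ± 0.04 in hypoxia and 8.79 ± 0.04 in normoxia (SD, n = 3 each), a 1.32-fold lower level in hypoxia (log2 difference −0.40, SE 0.08, limma adjusted p = 0.0427). No sample could be left out without losing this call, and the limma adjusted p then ran from 0.0840 to 0.141.

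All 4 calls had the same direction in each hybridization run. In runs 1, 2 and 3 the difference was −1.08, −0.998 and −1.20 for the dimmer titin probe set, and −0.58, −0.46 and −0.72 for the brighter one. It was −0.98, −0.67 and −1.21 for myh7 and −0.51, −0.34 and −0.25 for myh10. The 4 probe sets were not past the threshold within run 1 or run 2 alone, with limma adjusted p from 0.0984 to 0.523, and run 3, with 1 array per group, has no test. Run 3 repeats RNA of run 1, and the normoxia arrays of run 2 are 1 counted sample. Hypoxia array 4 of run 2 is counted as 1 sample with hypoxia array 1 of run 1, so the runs are not independent.

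**Figure D2:**
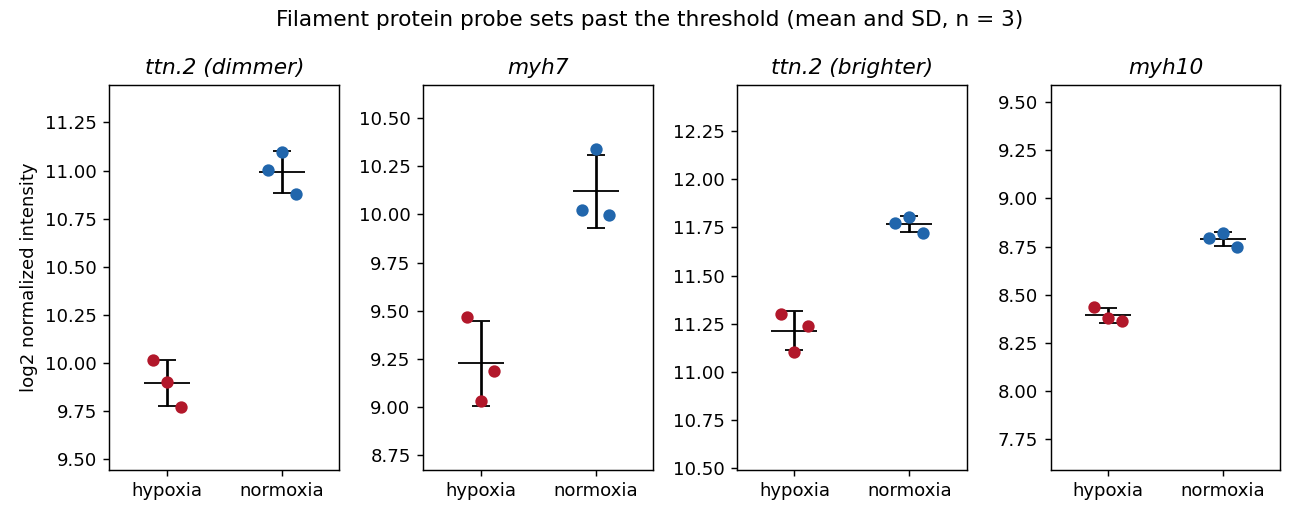
Log2 normalized intensity of the 4 filament protein probe sets with an adjusted p under 0.05, 1 point per counted sample, with the mean and SD (n = 3) as lines and a vertical axis of the same length in each panel. In all 4 panels the hypoxia points lie below the normoxia points, with the widest gap for the dimmer ttn.2 probe set.

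The remaining cardiac isoforms were not called, and their differences were small. Of the 7 cardiac probe sets, 1 was called lower (myh7; 14.3%, against 3.01% of all) and 0 higher, 3 had hypoxia wholly below normoxia (42.9%, against 17.3% of all), and the median difference was −0.09 (range −0.89 to 0.12). Within a group these probe sets were tight, with a median range over samples of 0.13 in hypoxia and 0.19 in normoxia.

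On the thick filament, myl7, the regulatory light chain of cardiac myosin, read 12.86, 12.77 and 12.83 in hypoxia against 12.86, 12.83 and 12.82 in normoxia, so the groups overlapped (difference −0.02, 95% interval −0.11 to 0.07, limma adjusted p = 0.813). The cardiac myosin-binding protein C gene mybpc3, whose product tunes the pace of the myosin heads, averaged 11.62 ± 0.10 in hypoxia and 11.70 ± 0.02 in normoxia (SD, n = 3 each). Its difference was −0.09 (95% interval −0.23 to 0.06, limma adjusted p = 0.476), but −0.23 on the deposited values and −0.30 after median scaling, where it passed the threshold (limma adjusted p = 0.0362). Median scaling also shifted the median of all probe sets to −0.14. For myl7 and mybpc3 the interval leaves out a fall of the size seen for myh7.

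On the thin filament, the cardiac troponin T gene tnnt2a, which ties troponin to tropomyosin, read 12.41, 12.37 and 12.37 in hypoxia against 12.64, 12.45 and 12.52 in normoxia. Hypoxia was wholly below normoxia, but the difference of −0.15 did not pass the threshold (95% interval −0.28 to −0.02, limma adjusted p = 0.183). The cardiac actin gene actc1a averaged 12.90 ± 0.02 in hypoxia and 12.96 ± 0.03 in normoxia (SD, n = 3 each), also without overlap and also not past it (difference −0.06, limma adjusted p = 0.334).

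The calcium-binding troponin C gene tnnc1a had overlapping groups, with a difference of −0.09 (95% interval −0.36 to 0.18, limma adjusted p = 0.695). The cardiac tropomyosin gene tpm4a, at 9.42, 9.55 and 9.48 in hypoxia against 9.46, 9.53 and 9.09 in normoxia, was the one cardiac probe set with a difference above 0 (0.12, limma adjusted p = 0.631), and it was −0.06 on the deposited values and −0.13 after median scaling. For actc1a, myl7 and tnnt2a, among the brightest probe sets of the array, quantile normalization fixes the spacing of the values. The same 3 differences were −0.12, −0.09 and −0.16 on the deposited values, also not past the threshold, and 0.06, 0.10 and 0.02 after cyclic loess.

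None of the probe sets matched by a single symbol stood for the other cardiac genes of the set, such as myh6, myh7l, myl4, tnni1b and csrp3, so these are not described. Whether probes for myh7 also bind its close relative myh7l, or those of one alpha-actin another, was not tested.

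Among proteins that heart and skeletal muscle share, most probe sets lay lower in hypoxia. Of the 9 tested, 2 were called lower, both of titin (22.2%, against 3.01% of all), and 6 had hypoxia wholly below normoxia (66.7%, against 17.3% of all). These 6 were the ttn.2 pair, the actc1b pair, ldb3a and ldb3b. The 9 probe sets stood for 7 genes, so ttn.2 and actc1b entered these shares with 2 probe sets each. Of the 9, 8 had a difference below 0 (88.9%, against 56.9% of all), and the median was −0.38 (range −1.10 to 0.07).

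At the Z-disc, ldb3a, which encodes a protein that binds alpha-actinin, read 9.64, 9.83 and 9.92 in hypoxia against 10.21, 10.09 and 10.30 in normoxia. There was no overlap, and the difference of −0.40 (SE 0.10) did not pass the threshold (limma adjusted p = 0.0733). Its paralogue ldb3b read 11.49, 11.52 and 11.56 in hypoxia against 11.85, 11.74 and 11.64 in normoxia (difference −0.22, limma adjusted p = 0.110). The alpha-actinin gene actn2b, which crosslinks actin at the Z-disc, averaged 11.20 ± 0.08 in hypoxia and 11.38 ± 0.32 in normoxia (SD, n = 3 each), with normoxia 2 below every hypoxia sample (limma adjusted p = 0.551).

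For actc1b, an alpha-actin, both tested probe sets had hypoxia below normoxia in every sample. The brighter read 12.05, 11.92 and 12.15 in hypoxia against 12.19, 12.48 and 12.52 in normoxia (difference −0.36, limma adjusted p = 0.108), and the dimmer differed by −0.38 (limma adjusted p = 0.0721). Neither passed the threshold in these 3 against 3 samples. With the 8 samples counted as the labels give them, both actc1b probe sets passed it (limma adjusted p = 0.0168 and 0.00800), as did ldb3a (0.00760) and ldb3b (0.0342), each lower in hypoxia. That setting counts the near-identical arrays as separate samples. It called 921 of all 10851 probe sets lower, against 327 with 3 against 3 samples.

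The array also carries actin control probe sets, assigned to actc1b, that read the 3′ end, the middle and the 5′ end of the transcript and that show how intact the labelled RNA was. The 3′ probe set averaged 11.84 ± 0.10 in hypoxia and 12.23 ± 0.24 in normoxia (SD, n = 3 each; exact permutation p = 0.2). The 3′ minus 5′ difference was 0.77, 0.24 and 0.26 log2 units in hypoxia against 0.25, 1.05 and 0.49 in normoxia (exact permutation p = 0.6). It was highest in normoxia 2 and hypoxia 1/4, and the groups overlapped. A second 5′ control probe set, not used for this difference, read 12.03, 12.14 and 12.21 in hypoxia against 12.41, 12.13 and 12.38 in normoxia. The order of samples can depend on which 5′ probe set is taken. The part of RNA quality in the differences of the other genes was not tested.

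The tropomyosin genes, whose products lie along actin, were not called, and the difference between them was not tested. For tpm3 the difference was 0.07 (limma adjusted p = 0.666). For tpm1, hypoxia read 9.11, 8.03 and 7.91 against 7.83, 9.55 and 10.20 in normoxia. Its lowest and highest samples were both normoxia samples, the pattern that also marked the skeletal isoforms, and its difference was −0.84 (SE 0.62, limma adjusted p = 0.488).

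Skeletal isoforms were detected in these heart samples. Of 19 probe sets 15 were tested, and 12 of the 15 lay above the background bound on all 10 arrays. The other 3 were under it on at least 1 array, as were 3081 of all 10851 probe sets tested. The skeletal isoforms varied far more between samples than the cardiac ones. Of the 15 tested, 0 were called, and 2 were lower at an unadjusted limma p under 0.05 (mybpc2b and actn3b), which is 13.3% against 13.4% of all probe sets. Hypoxia was wholly below normoxia in 0 of 15, against 17.3% of all, and wholly above it in 0, against 9.96%. The median difference of −0.77 was larger than that of the cardiac class, but so was the median SE, 0.66 against 0.06. The median range over samples was 1.11 in hypoxia and 2.51 in normoxia.

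Normoxia 1, which stood apart over the bright probe sets as a whole, stood apart in these genes too. It was the lowest normoxia sample in 13 of 15 skeletal probe sets (86.7%, against 25.3% of all probe sets), and normoxia 3/4 was the highest of all samples in 11. Both normoxia 2 and normoxia 3/4 lay above every hypoxia sample in 8 of 15 (53.3%, against 20.5% of all). Over the 6 samples, 11 of the 15 skeletal probe sets spanned at least 4-fold, against 0 of 7 cardiac, 1 of 9 shared and 0 of 7 smooth-muscle or non-muscle ones.

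Light chains of fast myosin showed the pattern plainly. The brighter mylpfa probe set, for the fast regulatory light chain, read 10.15, 9.14 and 9.80 in hypoxia against 8.79, 11.13 and 11.60 in normoxia. Normoxia 1 was below every hypoxia sample and the other normoxia samples were above them all, so the difference of −0.81 had an SE of 0.71 (limma adjusted p = 0.560). The essential light chain gene mylz3 read 9.28, 8.17 and 8.52 in hypoxia against 8.00, 10.64 and 10.77 in normoxia (difference −1.15, limma adjusted p = 0.427).

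The dimmer mylpfa probe set (−0.83, limma adjusted p = 0.492) and myl1, another fast light chain (6.72, 6.19 and 7.36 in hypoxia against 5.76, 8.54 and 8.84 in normoxia), had the same order of normoxia samples. Normoxia 1 was read on a single array, so its values have no repeat, and the same holds for hypoxia 3. For skeletal probe sets above the bound, the largest difference was 0.385 between the repeat arrays 2 and 5 of hypoxia and 0.250 between those of normoxia.

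Fast troponins had this order of normoxia samples too. The troponin T gene tnnt3b read 9.59, 8.56 and 9.18 in hypoxia against 8.78, 10.50 and 10.95 in normoxia (difference −0.96, limma adjusted p = 0.378). The troponin C gene tnnc2.2 read 8.80, 7.82 and 8.14 in hypoxia against 7.18, 9.63 and 10.25 in normoxia (difference −0.77, limma adjusted p = 0.606). The inhibitory subunit gene tnni2b.1 read 6.69, 6.50 and 7.97 in hypoxia against 3.14, 7.05 and 8.30 in normoxia. The normoxia 1 value was under the background bound, so only an upper limit is known there, and the difference of 0.89 (limma adjusted p = 0.729) rests on it. It was 0.33 with values set to the bound (limma adjusted p = 0.890) and −0.63 without normoxia 1 (0.628).

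The largest skeletal differences belonged to mybpc2b, the fast myosin-binding protein C, and actn3b, the alpha-actinin of fast fibres. For mybpc2b, hypoxia read 6.19, 4.81 and 4.72 against 5.63, 7.72 and 7.78 in normoxia (difference −1.80, SE 0.66, limma adjusted p = 0.187). Its intensities on hypoxia arrays 2 and 3, at 24.4 and 25.4, were under the background bound, so only an upper limit is known there. With values set to the bound the mybpc2b difference was −1.75 (limma adjusted p = 0.276). For actn3b, hypoxia read 6.97, 6.50 and 6.95 against 6.83, 8.66 and 9.23 in normoxia (difference −1.43, SE 0.57, limma adjusted p = 0.217). In both, normoxia 1 lay within the range of the hypoxia samples.

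Not every skeletal isoform had this pattern. The skeletal actin gene acta1a read 9.77, 10.26 and 10.91 in hypoxia against 10.73, 10.98 and 10.26 in normoxia (difference −0.35, limma adjusted p = 0.565). The myosin-binding protein H gene mybphb varied little, at 9.91, 10.07 and 9.82 in hypoxia against 10.11, 9.97 and 9.83 in normoxia (difference −0.03, 95% interval −0.27 to 0.20, limma adjusted p = 0.874). The differences were 0.15 for mybpha, 0.25 for tnni2a.3, −0.27 for the slow myosin heavy chain smyhc1 and −0.09 for tnnt3a, with limma adjusted p from 0.773 to 0.937. In mybpha, tnni2a.3, smyhc1 and tnnt3a normoxia 1 was still the lowest normoxia sample, but normoxia 2 and 3/4 did not both lie above every hypoxia sample. For tnnt3a, 4 of 5 hypoxia and 3 of 5 normoxia arrays were under the background bound, so its order is uncertain.

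The skeletal class median depended on which normoxia sample was in the comparison. Leaving out normoxia 1 gave −1.59, leaving out normoxia 2 gave −0.46 and leaving out normoxia 3/4 gave −0.27. Omitting a hypoxia sample gave −0.92 to −0.55. The cardiac median stayed between −0.11 and −0.05 and the shared one between −0.46 and −0.30 over the same 6 omissions. Without normoxia 1, actn3b passed the threshold (difference −2.14, limma adjusted p = 0.0402), while mybpc2b, at −2.51, did not (0.0772), nor did mylz3, at −2.05 (0.0581). By hybridization run the skeletal median was −0.39, −1.61 and −1.82 in runs 1, 2 and 3, against −0.08, −0.03 and −0.08 for the cardiac class and −0.32, −0.46 and −0.49 for the shared class.

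**Figure D3:**
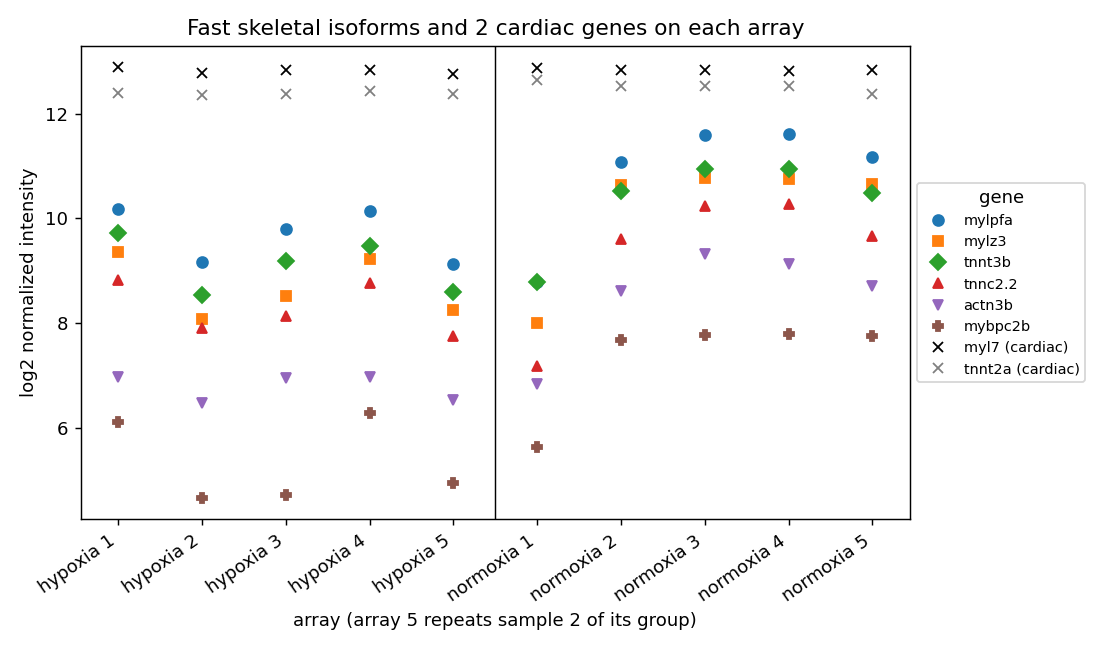
Log2 normalized intensity on each of the 10 arrays, hypoxia left of normoxia, for 6 skeletal isoforms (mylpfa as its brighter probe set) and for the cardiac genes myl7 and tnnt2a. The cardiac genes stay level across all arrays, whereas the skeletal ones are highest on normoxia arrays 2 to 5 and lie on normoxia array 1 within or below the range of the hypoxia arrays.

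Skeletal muscle genes outside the filaments were measured beside these. Of 10 tested probe sets for skeletal muscle markers 0 were called, and their summed intensity ran from 9768 to 13539 in hypoxia and from 10312 to 18301 in normoxia. The largest parts of these sums were ckma and eno3, at mean intensities of 4319 and 4081 over the arrays. They spanned only 0.31 and 0.13 log2 units over the samples. The fast calcium pump gene atp2a1l read 8.20, 7.50 and 7.81 in hypoxia against 8.16, 9.64 and 10.29 in normoxia, and the muscle creatine kinase gene ckmb read 9.10, 8.81 and 9.50 in hypoxia against 9.38, 10.60 and 11.04 in normoxia, so normoxia 2 and 3/4 were the highest samples for both. The calcium pump gene atp2a1 had this order too, at 6.11, 6.79 and 8.02 in hypoxia against 7.23, 9.10 and 9.92 in normoxia. Its difference was −1.78 (limma adjusted p = 0.236). Over the list, normoxia 2 and 3/4 both lay above every hypoxia sample in 4 of 10 (40.0%, against 20.5% of all). Among these 4 was ckma, at 12.03, 11.92 and 11.96 in hypoxia against 12.23, 12.09 and 12.22 in normoxia. For ckma normoxia 1 was the highest of all samples, whereas it was the lowest normoxia sample for atp2a1l, ckmb and atp2a1. Other markers did not share the order either. For pvalb3, hypoxia read 10.60, 7.07 and 5.62 against 6.89, 5.77 and 11.19 in normoxia, with normoxia 2 the lowest normoxia sample. A difference above 0 was seen in 3 of the 10, at 2.06 for pvalb2, 0.82 for pvalb1 and 0.02 for eno3. The median over the 10 was −0.32. The muscle regulatory genes were at background, myog on all 10 arrays and myod1 on 5 of 5 hypoxia and 3 of 5 normoxia arrays. The part of skeletal muscle RNA in the differences was not tested.

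Markers of heart muscle itself, outside the filaments, were present. Of 7 tested probe sets for cardiomyocyte markers, 1 was called lower (14.3%, against 3.01% of all), for the cardiac calcium pump atp2a2a, at 11.84, 11.89 and 11.87 in hypoxia against 12.35, 12.19 and 12.29 in normoxia (difference −0.41, SE 0.05, limma adjusted p = 0.0218). Its other probe set differed by −0.24 and was not called. The call was lost in 4 of the 6 omissions of a sample, with limma adjusted p up to 0.0904 (without hypoxia 3). Over the list, 4 of the 7 were lower at an unadjusted limma p under 0.05 (57.1%, against 13.4% of all). Hypoxia lay wholly below normoxia in 3 of them (42.9%, against 17.3% of all), and the median difference was −0.31. The summed intensity of the list was 5903 to 6277 in hypoxia and 7329 to 8045 in normoxia. The called atp2a2a probe set, with a mean intensity of 4323 over the arrays, was the largest part of these sums. The regulators tbx5a, gata4 and tbx20 were under the bound on all arrays.

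Called markers of blood and liver were higher in hypoxia. Both lists, like the members, classes and other lists described here, were chosen with earlier results of these data known. All the shares given are thus a description and not a test. Of 8 red blood cell markers 6 were called higher in hypoxia (75.0%, against 0.968% of all), with sums of 21542 to 26196 in hypoxia and 17809 to 18595 in normoxia. Of 9 liver markers 2 were called higher (22.2%, against 0.968% of all), with sums of 13359 to 24615 in hypoxia and 1170 to 9606 in normoxia, and normoxia 1 was the lowest sample in all 9. The summed intensity of the cardiac filament probe sets was 27430 to 28793 in hypoxia against 29427 to 30897 in normoxia, and of the shared ones 18067 to 19020 in hypoxia against 23663 to 25680 in normoxia. The largest parts of the cardiac sum were actc1a, myl7 and tnnt2a, at mean intensities of 7804, 7263 and 5601. Their differences changed sign after cyclic loess. The shared sum holds 2 probe sets each of actc1b and ttn.2. The part of a change in tissue makeup in these differences was not tested.

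**Figure D4:**
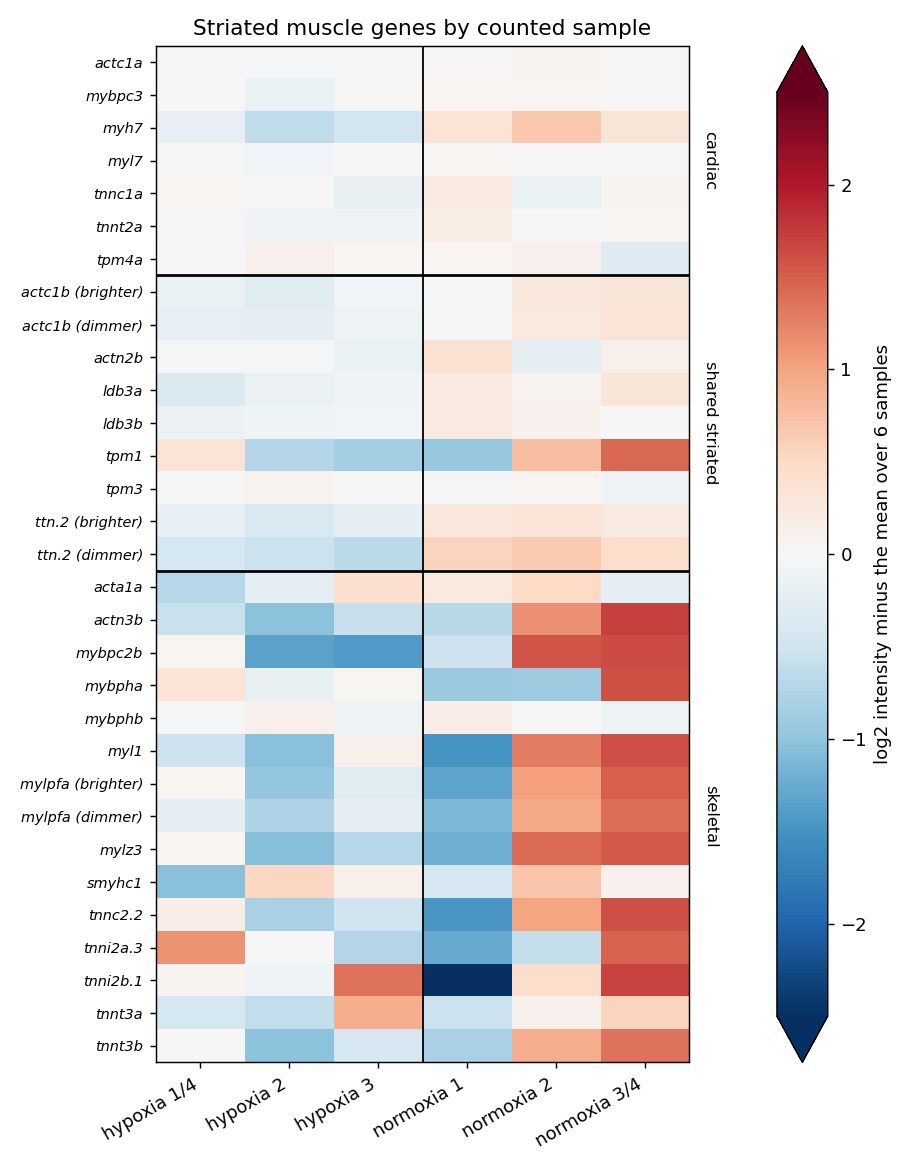
Deviation of each counted sample from the mean over 6 samples (log2, colours stopping at 2.5 on either side) for the cardiac, shared and skeletal probe sets, with hypoxia in the left and normoxia in the right columns. The ttn.2 and myh7 rows are blue in all hypoxia and red in all normoxia columns, while most skeletal rows are blue in normoxia 1 as well.

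**Figure D5:**
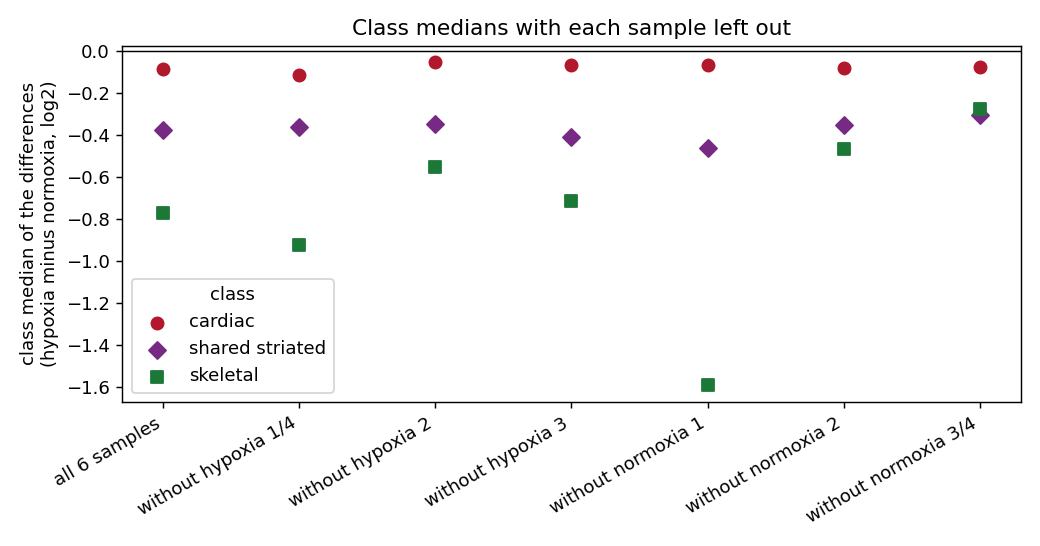
Median difference between hypoxia and normoxia (log2) of the 7 cardiac, 9 shared and 15 skeletal probe sets with all 6 samples and with each sample left out. The skeletal median moves between −1.59 and −0.27, the cardiac one between −0.11 and −0.05 and the shared one between −0.46 and −0.30.

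Smooth-muscle and non-muscle isoforms, apart from myh10, differed little. Of 7 tested probe sets 1 was lower (myh10; 14.3%, against 3.01% of all) and 0 were higher, with a median difference of 0.01. The light chain genes myl6 and myl9b differed by 0.01 and 0.03, with 95% intervals of −0.24 to 0.26 and −0.20 to 0.26. The myl12.1 probe sets differed by −0.00093 and 0.21 and the tpm4b probe sets by −0.07 and 0.13, and the groups overlapped in all 4. The smooth muscle markers outside the set, 3 tested, held 0 calls, with sums of 2771 to 2977 in hypoxia and 2522 to 3187 in normoxia. The light chain genes myl10 and myl13, placed in no class, differed by −0.59 and −0.36 (limma adjusted p = 0.501 and 0.643).

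The symbol patterns also matched mylka, a myosin light chain kinase, which phosphorylates the regulatory light chain. Its brighter probe set read 8.63, 8.64 and 8.90 in hypoxia against 8.39, 8.10 and 8.32 in normoxia, wholly higher in hypoxia, and the difference of 0.46 did not pass the threshold (limma adjusted p = 0.0947). The other mylka probe set differed by 0.59, also without overlap and also not past it (0.102). With the 8 samples counted as labelled both mylka probe sets passed it, higher in hypoxia (limma adjusted p = 0.0235 and 0.0201). The ubiquitin ligase gene mylipa differed by 0.23 (limma adjusted p = 0.414). Of the antigen-presentation genes caught by their letters, 9 probe sets were tested and 0 called, with 1 higher at an unadjusted limma p under 0.05 and a median difference of 0.17.

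Genes that build, fold or anchor the sarcomere were described from a list outside the symbol patterns. Of 68 such genes listed, 25 had a probe set with that single symbol, and 25 probe sets were tested. Of these, 1 was lower (4%, against 3.01% of all) and 0 were higher, 9 had hypoxia wholly below normoxia (36.0%, against 17.3% of all) and the median difference was −0.24. The called gene was flncb, a filamin C that links actin at the Z-disc and the membrane, at 8.61, 8.56 and 8.41 in hypoxia against 9.11, 9.26 and 9.06 in normoxia. The means were 8.53 ± 0.10 in hypoxia and 9.14 ± 0.11 in normoxia (SD, n = 3 each; difference −0.61, SE 0.10, limma adjusted p = 0.0277). The call was lost without any 1 sample, with limma adjusted p from 0.0549 to 0.0968.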

How the data were processed

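RNA of zebrafish hearts was read on 10 arrays. The deposited table holds 1 intensity per probe set and array on a linear scale, and how the authors made it is not stated in the sources used here. Of its values, 7.86 to 10.1% per array were at or below 0. The deposited array records hold another unit, text on chip, wash and hybridization, from which the runs were read.

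Values were quantile normalized, 1 was added, results under 1 were set to 1, and log2 was taken. Array 5 was averaged with array 2, and the near-identical arrays with each other. Control probe sets (115) and the lowest 30% by mean were left out. limma 3.58.1 in R 4.3.3 (lmFit, eBayes with an intensity trend, two-sided, Benjamini-Hochberg over all 10851 probe sets) was tested on simulated data. The background bound was 2 times the background SD of 13.5. Exact permutation tests were run for single values. The number of arrays limits the precision.

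Members, classes and gene lists were chosen with earlier results of these data known. Gene names came from the platform table (10802 probe sets with 1 symbol, 135 with several, 4680 with none), and 4 matches among several-symbol probe sets were not named. Of the 69 matched probe sets, 66 had an ID in the current gene table, all 66 with the same symbol. Named were all called probe sets, in each class the 5 brightest and the 3 of largest difference above the bound, a fixed panel of sarcomere genes, and called members of the lists. The genes atp2a1, atp2a1l, ckma, ckmb, eno3, mylipa, pvalb1 to pvalb4, neb, tmod4, myoz1b and some uncalled filament genes were named after their values were seen. No sequence or coordinate is given, since no genome was used.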

Additional observations from a re-analysis of the deposited data

How the results depend on the processing

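Of 4 called filament protein probe sets, none changed direction under the alternatives, and over 22 alternatives with a test the dimmer ttn.2 probe set kept its call in 18, the brighter in 17, myh7 in 12 and myh10 in 10. The count of 4 lower probe sets was 8 after median scaling, 8 with 8 samples as labelled, 8 with hypoxia 1 and 4 kept apart and 10 with all 10 arrays and a random block per sample, and 0 were higher under any alternative. The lower count over all 10851 probe sets rose as well, from 327 to 714, 921, 582 and 652 in these settings. The filament count was 0 without the intensity trend (limma found 0 lower over all probe sets and 2 higher there, with 2181 at an unadjusted p under 0.05), 0 in run 1 alone (1655 unadjusted) and 0 in run 2 alone (1358 unadjusted). Leaving out 1 sample at a time gave 0 to 3, with 0 without hypoxia 3 (1739 unadjusted), and 0 to 111 lower over all probe sets. Deviations of same-numbered samples correlated at 0.18, 0.09, 0.08 and −0.09, so the samples were not treated as pairs, although same-numbered arrays shared a hybridization run. With the replicate number as a block, the 8 labelled samples gave 7 (698 lower over all probe sets). With the run as a block beside the random block the 10 arrays gave 6 (591 lower over all). Median scaling shifted the median of all probe sets to −0.14, and cyclic loess to 0.02.

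The cardiac median of −0.09 was −0.16 on deposited values, −0.24 after median scaling, 0.02 after cyclic loess and −0.033 in run 2, and −0.11 to −0.052 with 1 sample left out. The shared median of −0.38 was −0.46 on deposited values, −0.53 after median scaling, −0.26 after cyclic loess, −0.32, −0.46 and −0.49 in runs 1, 2 and 3, and −0.46 to −0.30 with 1 sample left out. The skeletal median of −0.77 was −1.82 in run 3 and −0.54 with no filter. The cause of these shifts was not tested.

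Uncalled probe sets passed the threshold in the same direction in 25 of 827 alternative values, those of both actc1b probe sets, ldb3a, ldb3b, mybpc3, actn3b and mybpc2b. Of 36 uncalled probe sets, 20 changed sign somewhere, 0 of them past the threshold with the changed sign. On deposited values these were tpm4a (−0.056), tpm3 (−0.12), tnnt3a (0.061), myl6 (−0.13) and myl9b (−0.16). After median scaling they were tpm4a (−0.13), tpm3 (−0.20), the dimmer myl12.1 (−0.065), myl6 (−0.20) and myl9b (−0.24). After cyclic loess they were actc1a (0.057), myl7 (0.097), tnnt2a (0.025) and the brighter myl12.1 (0.0059). In run 1 they were tpm4a (−0.032), mybphb (0.057), the brighter myl12.1 (0.032), myl6 (−0.11), myl9b (−0.18) and the brighter tpm4b (0.18). In run 2 they were mybpc3 (0.023), myl7 (0.015), acta1a (0.048), mybpha (−1.42), mybphb (0.0081), tnni2a.3 (−1.29), tnni2b.1 (−0.93) and the dimmer tpm4b (−0.059). The remaining settings gave mybpha −0.20 with 8 samples as labelled, with and without the block, the brighter myl12.1 0.0015 with 10 arrays and 0.0077 with hypoxia 1 and 4 apart, myl6 −0.0041 with them apart, tnnt3a 0.11 with values at the bound, and mybphb 0.018 and myl9b −0.070 without the technical repeats. With 1 sample left out at a time, signs also differed for myl7 (−0.037 to 0.0063), tnnc1a (−0.20 to 0.0039), tpm4a (−0.015 to 0.20), mybpha (−0.28 to 0.98), mybphb (−0.10 to 0.036), smyhc1 (−0.59 to 0.19), tnni2a.3 (−0.32 to 1.06), tnni2b.1 (−0.63 to 1.96) and tnnt3a (−0.56 to 0.19). The same held for the brighter myl12.1 (−0.041 to 0.027), myl6 (−0.064 to 0.071), myl9b (−0.048 to 0.094), the brighter tpm4b (−0.19 to 0.041) and the dimmer tpm4b (−0.020 to 0.32).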

Other observations

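The parvalbumins are calcium buffers of fast muscle and were listed as skeletal muscle markers. For pvalb2, hypoxia 1/4, 2 and 3 read 10.57, 9.64 and 6.96 log2 units, against 5.76, 5.29 and 9.92 in normoxia 1, 2 and 3/4. For pvalb1, hypoxia read 9.11, 8.15 and 6.81 against 6.37, 6.32 and 8.91 in normoxia. Both were thus low in normoxia 2, in which mylpfa, mylz3 and tnnt3b were high. For pvalb4, hypoxia read 9.28, 6.54 and 4.17 against 7.10, 8.52 and 10.24 in normoxia, so it had normoxia 1 lowest and normoxia 3/4 highest of the normoxia samples, as those genes did. None of these was past the threshold, and the groups overlapped for each.

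Nebulin, the ruler of the thin filament in skeletal muscle, had the same order of normoxia samples as mylpfa, mylz3 and tnnt3b. For neb, hypoxia read 6.18, 6.12 and 6.31 against 5.93, 7.50 and 8.30 in normoxia (difference −1.04, limma adjusted p = 0.329). Not every gene of the sarcomere-associated list had this order. For tmod4, hypoxia read 7.76, 6.92 and 7.24 against 6.96, 7.07 and 6.79 in normoxia (difference 0.37, limma adjusted p = 0.386). For myoz1b, with 2 hypoxia arrays under the background bound, hypoxia read 4.97, 5.33 and 4.69 against 5.52, 5.77 and 5.28 in normoxia. In both, normoxia 3/4 was the lowest normoxia sample.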
